A study of Homo sapiens with 8 samples.

Results

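NCI-H82 cells, a line of small cell lung cancer that carries an RB1 transgene switched on by doxycycline (the Dox-On pTripZ vector), were compared in 2 states: with pRB restored and Aurora B inhibited, and with neither. The first group, pRB+ AZD2811, received 0.5 µg/mL doxycycline for 96 h and 32 nM AZD2811 for 48 h, and the second, pRB- control, received no doxycycline and the DMSO vehicle. The comparison used 4 libraries, 2 per group, of 8 in the series. The remaining 4 gave the single changes: pRB+ control had doxycycline and DMSO, and pRB- AZD2811 had AZD2811 without doxycycline. All groups were the same transduced line, plated at 100000 cells per mL, so doxycycline itself always goes with pRB and the agent and the protein cannot be told apart. Sample titles call the inhibitor AZD1152, of which AZD2811 is the active form. Replicates are called biological without a statement of how they were cultured, and every p-value here reflects how far these samples vary, which may be technical.

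pRB, the product of RB1, binds E2F transcription factors and holds back the genes that carry a cell from G1 into S phase. Small cell lung cancer almost always lacks pRB. Aurora B is the kinase of the chromosomal passenger complex, which corrects faulty attachments of chromosomes to the spindle, supports the spindle checkpoint and is needed for cytokinesis. Mitotic genes are mostly transcribed late in the cell cycle, and many are repressed in resting cells by the DREAM complex, in which a pocket protein, an E2F factor and the MuvB core act together.

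The question was how far the cells moved when both interventions were applied, and whether that change equals the sum of the 2 single changes. A single change is the difference of pRB+ control or of pRB- AZD2811 from pRB- control. All changes are differences of group means of log2 (scaled FPKM + 1), where FPKM is fragments per kilobase of transcript, relative to the library's total, rescaled between libraries. On this scale a sum of changes is a product of folds, and changes of low genes are understated. The departure from the sum is the combined change minus both single changes. It was tested as the interaction term, and it is positive where the combined value lies above the sum. Genes passed at a Benjamini-Hochberg adjusted p under 0.05 (limma, over the 11693 genes averaging 1 scaled FPKM or more).

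The promoters of 5 genes that fell in the combined state are shown, RefSeq GRCh38.p14, 250 bases before to 50 after the start, 5′ to 3′ on the gene's strand. They were picked for holding letters tied to cell cycle or sterol genes, so the presence of these letters is not a result. Among members of their lists that fell and hold the letters they had the smallest p, with genes of a single chromosome passed over. Capitals mark E2F-type letters (TTCCCGC or TTGGCGC) in CDT1, the letters TTTGAA or TTCGAA, the core of the cell cycle homology region, in CDK1 and DLGAP5, and sterol-element-like letters (TCACNCC) in MSMO1 and IDI1. All were searched on both strands. The windows are chr16:88803539-88803838 (+) for CDT1, chr10:60778081-60778380 (+) for CDK1, chr14:55191536-55191835 (-) for DLGAP5, chr4:165327419-165327718 (+) for MSMO1 and chr10:1056655-1056954 (-) for IDI1.
CDT1: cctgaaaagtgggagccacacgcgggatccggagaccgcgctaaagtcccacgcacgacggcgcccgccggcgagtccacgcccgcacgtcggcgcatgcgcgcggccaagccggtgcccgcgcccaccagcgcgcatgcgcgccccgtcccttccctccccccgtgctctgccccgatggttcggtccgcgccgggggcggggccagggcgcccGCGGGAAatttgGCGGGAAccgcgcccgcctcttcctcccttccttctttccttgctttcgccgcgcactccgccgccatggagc
CDK1: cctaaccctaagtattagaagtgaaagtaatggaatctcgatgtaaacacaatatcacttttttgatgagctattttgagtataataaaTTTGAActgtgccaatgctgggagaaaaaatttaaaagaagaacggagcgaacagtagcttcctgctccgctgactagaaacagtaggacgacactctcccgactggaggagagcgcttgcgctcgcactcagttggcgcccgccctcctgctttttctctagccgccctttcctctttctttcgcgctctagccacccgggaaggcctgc
DLGAP5: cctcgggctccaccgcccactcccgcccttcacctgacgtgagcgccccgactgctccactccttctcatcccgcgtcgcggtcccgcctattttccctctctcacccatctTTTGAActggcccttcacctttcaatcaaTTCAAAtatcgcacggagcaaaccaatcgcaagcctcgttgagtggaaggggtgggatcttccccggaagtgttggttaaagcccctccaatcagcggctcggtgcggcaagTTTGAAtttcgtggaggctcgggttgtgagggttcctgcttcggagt
MSMO1: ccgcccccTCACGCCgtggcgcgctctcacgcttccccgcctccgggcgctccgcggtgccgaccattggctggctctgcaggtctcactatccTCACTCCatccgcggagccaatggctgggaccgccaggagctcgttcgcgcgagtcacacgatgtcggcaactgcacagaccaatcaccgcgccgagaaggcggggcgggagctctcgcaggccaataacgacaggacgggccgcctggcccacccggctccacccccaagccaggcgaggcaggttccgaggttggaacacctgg
IDI1: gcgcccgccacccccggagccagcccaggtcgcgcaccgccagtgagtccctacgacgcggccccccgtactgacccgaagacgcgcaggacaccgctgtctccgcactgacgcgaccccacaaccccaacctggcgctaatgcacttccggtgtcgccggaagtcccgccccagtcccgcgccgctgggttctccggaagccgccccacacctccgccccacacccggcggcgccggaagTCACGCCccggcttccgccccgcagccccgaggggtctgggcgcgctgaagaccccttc

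In CDT1 both matches lie close to the start, beginning 35 and 23 bases before it. In DLGAP5 the matches begin 138 and 109 bases before the start and 3 bases after it. Such letters stood in a larger share of the lists these genes belong to than of all promoters. E2F-type letters stood in 64.7% of 51 promoters of the G1/S list, against 9.33% of all 27305 promoters. The core letters of the cell cycle homology region stood in 70.2% of 57 promoters of the G2/M list, against 16.6% of all promoters. Sterol-element-like letters stood in 26.9% of 26 promoters of the sterol list, against 15.2%, so most of that list lacks them. E2F-type letters stood in 26.9% of the same promoters. The letters CCAAT stood in 62.7%, 68.4% and 69.2% of the G1/S, G2/M and sterol promoters, against 35.7% of all promoters. Promoters were matched for 12 of 17 G1/S, 26 of 34 G2/M and 5 of 9 sterol members that fell, each fewer than 80%. Shares among the members that fell are therefore void and are not given. The lists hold tested genes alone, while all promoters include genes not tested here, so the shares are not like for like. These are matches of letters within a window and show no binding.

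The targeted gene followed its label. RB1 stood at 7.67 and 6.36 scaled FPKM in pRB+ AZD2811, 7.36 and 7.56 in pRB+ control, 0.941 and 0.95 in pRB- AZD2811, and 0.872 and 0.801 in pRB- control. The libraries with doxycycline all lay far above those without it, with or without the inhibitor. The combined change was 2.12 ± 0.11 (log2, SE; limma, adjusted p = 9.17e-05), an 8.38-fold ratio of mean scaled FPKM. Its departure from the sum was -0.17 (95% interval -0.52 to 0.18). The neuroendocrine identity of the line was visible too. Of 10 defining markers 9 averaged at least 1 scaled FPKM, among them UCHL1, an abundant neuronal ubiquitin hydrolase, at 270.4 to 336.8. NEUROD1, a lineage factor of a subtype of this cancer, lay at 74.8 to 111. The summed level of the 10 markers was 693 to 788 in pRB+ AZD2811 and 731 to 747 in pRB- control. Markers of other cells were near absent: 5 of 5 leukocyte, 3 of 3 endothelial, 4 of 4 other epithelial and 3 of 4 fibroblast markers were under 1 scaled FPKM in every library. The summed level of 7 tuft-like or non-neuroendocrine markers was 32.4 to 35.8 in pRB+ AZD2811 and 39.2 to 49.6 in pRB- control. VIM (vimentin) alone made up most of it, at 27.4 and 30.9 in pRB+ AZD2811 against 44.0 and 34.2 in pRB- control, while the defining tuft markers POU2F3, AVIL and TRPM5 lay near 0 in every library.

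Libraries differed in a way that the groups do not explain. In 3 of them (replicate 1 of pRB+ AZD2811, replicate 2 of pRB+ control and replicate 1 of pRB- AZD2811) RNA without poly(A) tails was abundant: RMRP, the RNA of a ribonuclease, lay at 5792 to 14003 scaled FPKM, against 21.2 to 165 in the other 5. Thus 1 of 2 pRB+ AZD2811 libraries and 0 of 2 pRB- control libraries are of this kind. Values from a fit with library type as a term, and without these 3 libraries (an alternative chosen after seeing the data), are given below. The latter fit has 1 library in each group except pRB- control, the lone group in it with replicates. Counts of genes past the threshold in that fit rest on single treated libraries and do not show robustness. Estimated depth was 23300000 to 33600000 fragments per library.

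Against pRB- control, 247 genes rose in pRB+ AZD2811 (2.11% of those tested) and 317 fell (2.71%), 564 in all (4.82%), with 3060 (26.2%) at an unadjusted p under 0.05. Their changes were small, with a median of 0.60 for those that rose and -0.55 for those that fell, and 22 of them changed by at least 1 on the log2 scale. For each of the 564 the groups did not overlap, as was so for 7076 (60.5%) of all tested genes. The median of mean scaled FPKM over the 8 libraries was 5.60 for genes that rose, 15.9 for genes that fell and 7.99 for all tested genes. In bulk RNA a lower level in every cell and fewer cells in the phase that expresses a gene cannot be told apart. The count rests on single libraries. Without pRB+ AZD2811 replicate 1, or without either pRB- control replicate, the lone gene past the threshold was RB1, and without pRB+ AZD2811 replicate 2 there were 1044. With library type as a term 472 genes passed, of which 371 were among the 564, and without the 3 libraries rich in RNA without poly(A) tails 257 passed, of which 189 were.

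**Figure D1:**
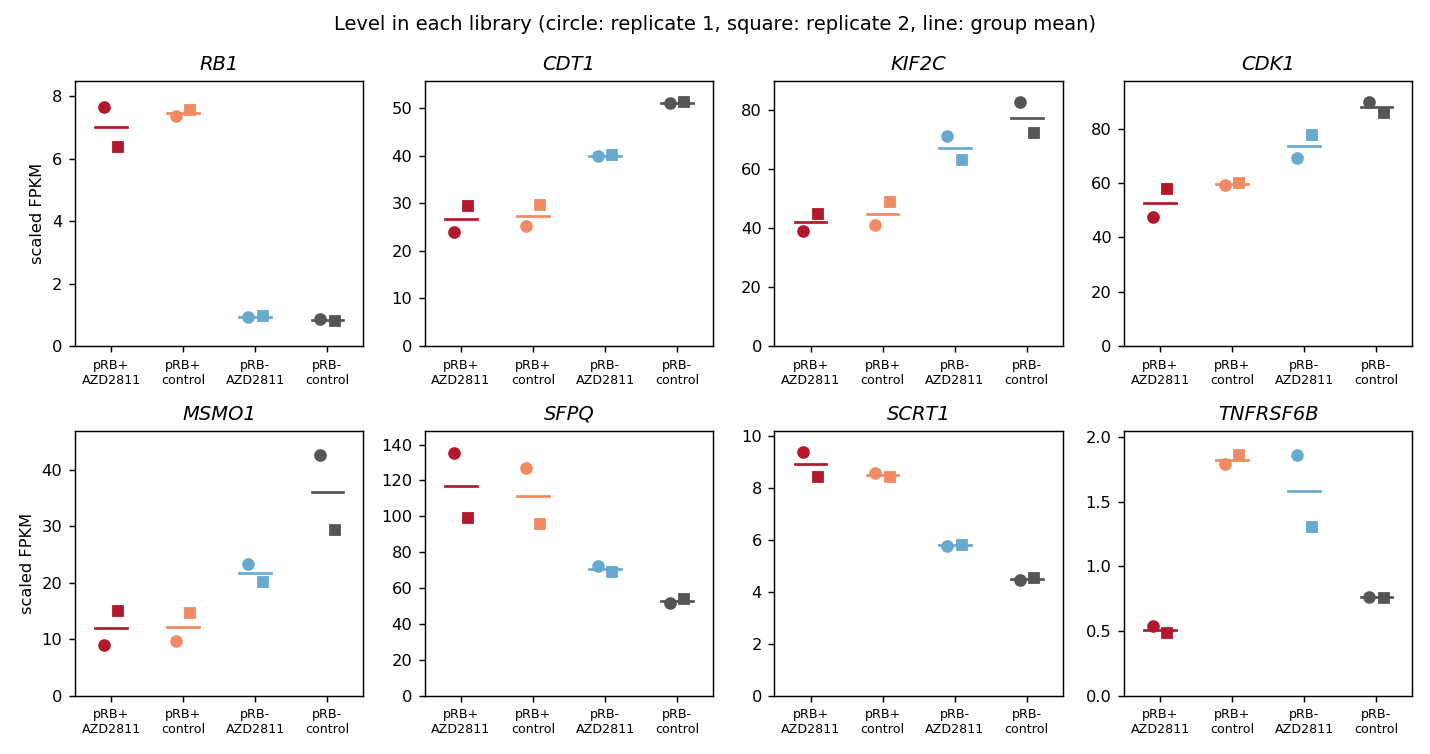
Scaled FPKM of 8 genes (y axis, each panel on its own linear scale from 0) in the 4 groups (x axis). Each circle or square is 1 library and each line the mean of 2; RB1, SFPQ and SCRT1 are higher and CDT1, KIF2C, CDK1 and MSMO1 lower in both doxycycline groups, while TNFRSF6B is high in both single groups and low in the combined one.

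Among rises outside RB1, SFPQ, a nuclear RNA-binding protein of splicing and paraspeckles, was the most abundant of those named. It stood at 135 and 98.8 scaled FPKM in pRB+ AZD2811, 127 and 95.6 in pRB+ control, 72.5 and 68.8 in pRB- AZD2811, and 51.6 and 54.1 in pRB- control. Both groups without doxycycline lay below both with it, and AZD2811 alone lay between pRB- control and the rest. The combined change was 1.12 ± 0.16 (adjusted p = 0.0324). The sum of the singles was 1.46, and the departure was -0.34 (95% interval -0.87 to 0.18). NCOA5, a nuclear receptor coactivator, rose by 1.56 on the log2 scale, a 4.04-fold ratio of mean scaled FPKM. It had 7.74 and 5.92 scaled FPKM in pRB+ AZD2811 and 1.17 and 2.21 in pRB- control. TRAK2, an adaptor that ties mitochondria to motor proteins, had 9.18 and 6.64 in pRB+ AZD2811 and 2.32 and 3.11 in pRB- control. PCF11, a factor of transcript cleavage and termination, had 3.71 and 2.32 in pRB+ AZD2811 and 0.777 and 0.889 in pRB- control. By group means all 4 genes were highest in the doxycycline groups, intermediate with AZD2811 alone and lowest in pRB- control. The remaining named rises, with log2 changes of 1.07 to 1.32, were the zinc finger genes ZNF804A and ZNF594, the microRNA host transcript MIR503HG, YAE1D1, the membrane protein gene TMEM88, the taste receptor subunit TAS1R3 and MBTD1, a reader of methylated histones.

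The largest of the named falls were in genes of sterol synthesis. Cells make cholesterol from acetyl-CoA through the mevalonate pathway, and its genes are controlled together by the factor SREBP2, which INSIG1 retains in the endoplasmic reticulum when sterols are plentiful. Of 32 tested genes of the sterol and fatty acid list 9 fell and 0 rose, with a list median of -0.35 against -0.02 for all tested genes. MSMO1, a sterol methyl oxidase, stood at 9.07 and 15.0 scaled FPKM in pRB+ AZD2811, 9.62 and 14.6 in pRB+ control, 23.3 and 20.2 in pRB- AZD2811, and 42.6 and 29.4 in pRB- control. The combined level was thus near that of pRB+ control, at 33.4% of pRB- control, with AZD2811 alone between. The combined change was -1.52 ± 0.25 (adjusted p = 0.0324), against a sum of -2.18, with a departure of 0.66 (95% interval -0.14 to 1.46). INSIG1 had 3.60 and 7.76 in pRB+ AZD2811 and 20.7 and 16.2 in pRB- control, a change of -1.61 ± 0.29. FDFT1, squalene synthase, had 25.4 and 48.6 in pRB+ AZD2811 and 114 and 90.4 in pRB- control. In these 3 genes pRB+ AZD2811 replicate 1 lay below replicate 2, and pRB- control replicate 1 above replicate 2. The spread within groups was thus wide. That the groups did not overlap was required by the rule that named these genes.

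IDI1, an isomerase of the mevalonate pathway, had 9.31 and 10.6 scaled FPKM in pRB+ AZD2811, 9.07 and 10.2 in pRB+ control, 14.0 and 12.9 in pRB- AZD2811, and 20.9 and 15.6 in pRB- control. Its combined value, -0.80, fell short of the sum, -1.24, by 0.44 (95% interval 0.01 to 0.88), and this departure did not pass the test over all genes (limma, adjusted p = 1). HMGCS1, MVK and SQLE, enzymes of the same pathway, also fell. The list's median departure was 0.15, and 31 of its 32 intervals included 0. The calls in this list rested on single libraries, as the whole count did. Its combined median was -0.21 without pRB+ AZD2811 replicate 1 and -0.47 without its replicate 2. It was -0.31 and -0.35 without pRB- control replicates 1 and 2. Without the 3 libraries rich in RNA without poly(A) tails it was -0.21.

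Genes of G2 and mitosis include substrates and partners of Aurora B. Of 68 tested in the G2/M list 34 fell and 0 rose, and the list median was -0.42. KIF2C, a kinesin that depolymerises microtubules at centromeres and is a substrate of Aurora B, stood at 39.0 and 44.8 scaled FPKM in pRB+ AZD2811, 40.9 and 48.6 in pRB+ control, 71.1 and 63.0 in pRB- AZD2811, and 82.5 and 72.2 in pRB- control. Both doxycycline groups lay below both groups without it, and the change was -0.87 ± 0.12 (adjusted p = 0.0324), against a sum of -0.98. CDK1, the kinase that drives entry into mitosis, stood at 47.3 and 57.9 in pRB+ AZD2811, 59.1 and 59.9 in pRB+ control, 69.2 and 77.8 in pRB- AZD2811, and 89.9 and 85.9 in pRB- control. Here all 4 groups were separate, with the combined state lowest, at 59.9% of pRB- control. Its change was -0.74 ± 0.11 (adjusted p = 0.0324), the sum -0.81 and the departure 0.07 (95% interval -0.28 to 0.43). DLGAP5, a microtubule-bundling protein of the spindle whose promoter is shown above, had 16.4 and 16.9 in pRB+ AZD2811 and 26.3 and 24.4 in pRB- control. CCNA2, cyclin A2, had 24.2 in each pRB+ AZD2811 library and 37.7 and 36.3 in pRB- control. NEK2, a centrosome kinase, fell by 0.94 on the log2 scale, the largest fall of the list. The list's medians were -0.33 for pRB alone, -0.07 for AZD2811 alone and 0.00 for the departure, and all 68 departure intervals included 0.

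The gene of the inhibitor's target fell as well. AURKB, which encodes Aurora B, stood at 82.7 and 91.0 scaled FPKM in pRB+ AZD2811, 86.9 and 94.1 in pRB+ control, 110 and 122 in pRB- AZD2811, and 133 and 117 in pRB- control. AURKB was lower in both doxycycline groups than in either group without, and its combined change was -0.52 ± 0.11 (adjusted p = 0.0369), with a departure of 0.05 (95% interval -0.29 to 0.39). Of 11 tested genes of the passenger complex and its partners 5 fell and 0 rose: AURKB, BIRC5 (survivin), CDCA8 (borealin), BUB1 and KIF20A. CDCA8 had 34.9 and 34.1 in pRB+ AZD2811 and 49.0 and 46.7 in pRB- control. In the spindle checkpoint list 8 of 24 fell and 0 rose, among them CDC20, the activator of the anaphase-promoting complex, with 113 and 114 in pRB+ AZD2811 and 180 and 156 in pRB- control. PMF1, a kinetochore subunit, and MAD2L2, a relative of a checkpoint protein that works mainly in DNA repair, each changed by -0.56. Several genes stand in more than one of these lists, so their counts overlap.

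G1/S genes serve DNA replication and are the best known targets of E2F factors. Of 61 tested, 17 fell and 0 rose, with a list median of -0.28. CDT1, which loads the replicative helicase onto origins, stood at 24.0 and 29.4 scaled FPKM in pRB+ AZD2811, 25.3 and 29.6 in pRB+ control, 39.8 and 40.1 in pRB- AZD2811, and 51.0 and 51.2 in pRB- control. The combined level matched that of pRB+ control to within the spread of replicates, and AZD2811 alone was between. The change was -0.92 ± 0.11 (adjusted p = 0.0324), against a sum of -1.22, and the departure was 0.31 (95% interval -0.05 to 0.67). ATAD2, a chromatin ATPase, had 30.1 and 32.7 in pRB+ AZD2811 and 46.2 and 50.1 in pRB- control. RFC4, a subunit of the clamp loader, had 73.6 and 78.7 in pRB+ AZD2811 and 111 and 108 in pRB- control, and ORC6, of the origin recognition complex, fell by 0.46 on the log2 scale. RRM2, the small subunit of ribonucleotide reductase, had 65.4 and 66.7 in pRB+ AZD2811, 72.4 and 61.2 in pRB+ control, 76.3 and 79.2 in pRB- AZD2811, and 97.6 and 96.0 in pRB- control. Its departure was 0.30 (95% interval -0.02 to 0.62). The list's median departure was 0.08, with all 61 intervals including 0. Whether G1/S and G2/M genes differ in their departures was not tested. Without pRB+ AZD2811 replicate 1 or either pRB- control replicate 0 genes of either list passed. Without the 3 libraries rich in RNA without poly(A) tails the list medians were -0.20 for G1/S and -0.39 for G2/M.

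**Figure D2:**
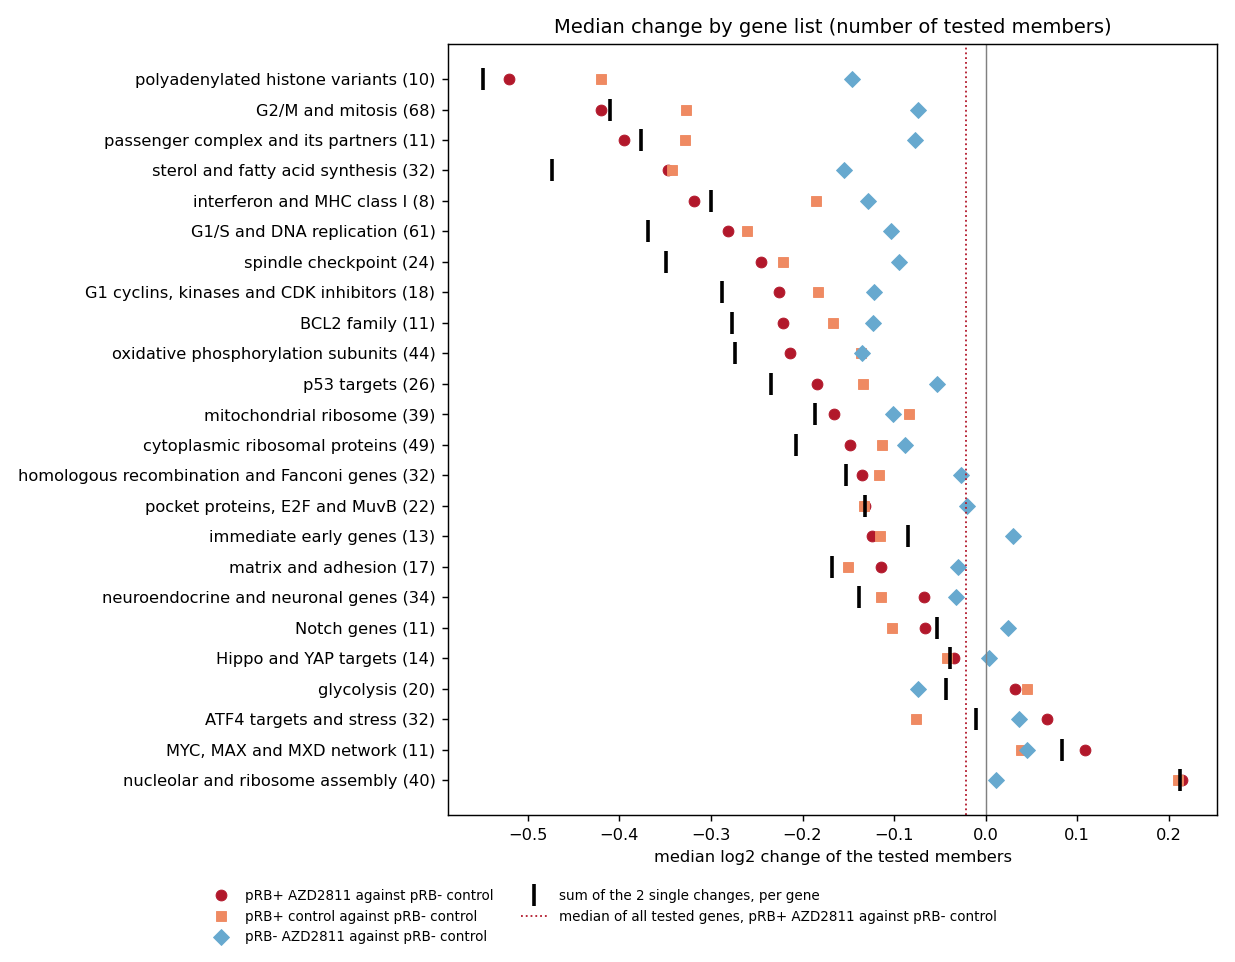
Median log2 change of each gene list (rows) for the combined change, the sum of the 2 single changes and each single change (markers, x axis in log2 units against pRB- control), with a dotted line at the median of all genes for the combined change. The G2/M list has a combined median of -0.42 beside a sum of -0.41, and the G1/S list one of -0.28 beside a sum of -0.37.

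Among the pocket proteins, E2F factors and MuvB subunits 3 of 22 rose and 2 fell. Besides RB1, the rises were E2F3, an activator, and E2F4, the repressor that works mostly with the other pocket proteins. E2F3 had 24.9 and 22.4 scaled FPKM in pRB+ AZD2811 and 14.4 and 16.6 in pRB- control, a change of 0.58 ± 0.11 (adjusted p = 0.0328). E2F8, an atypical repressor that is itself a cell cycle gene, had 1.21 and 1.36 in pRB+ AZD2811 and 2.75 and 2.60 in pRB- control. E2F2, an activator, had 10.7 and 10.9 in pRB+ AZD2811, 11.1 and 10.5 in pRB+ control, 15.5 and 13.6 in pRB- AZD2811, and 16.8 and 15.1 in pRB- control. E2F2 overlapped between the doxycycline groups and was lower there than in either group without, and its change was -0.52 ± 0.10 (adjusted p = 0.0324). Of 18 G1 cyclins, kinases and inhibitors, CDK2 and CDKN2C, which encodes the CDK4 and CDK6 inhibitor p18, fell and 0 rose. CDK2 had 26.7 and 35.2 in pRB+ AZD2811 and 50.5 and 46.3 in pRB- control.

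Many DNA repair genes are expressed in S phase. Of 32 homologous recombination and Fanconi genes 6 fell and 0 rose. RAD54L, a motor of strand invasion, had 21.5 and 23.5 scaled FPKM in pRB+ AZD2811 and 37.3 and 34.4 in pRB- control, a change of -0.65 ± 0.09 (adjusted p = 0.0324). CHEK1, the kinase of the replication checkpoint, had 12.6 and 14.0 in pRB+ AZD2811 and 21.7 and 19.3 in pRB- control. FANCA of the Fanconi core complex fell by 0.56 on the log2 scale. RDM1, a protein with a RAD52-like motif that is outside that list, had 4.09 and 5.15 in pRB+ AZD2811 and 10.3 and 11.6 in pRB- control. Of 10 histone variants with polyadenylated messages 3 fell: CENPA, the centromeric H3, H2AFX, the source of the damage mark gamma-H2AX, and H2AFV. The list median was -0.52. H3F3A had 0.00579 and 12.8 scaled FPKM in pRB+ AZD2811, 0.00292 and 0.00464 in pRB+ control, 10.1 and 4.38 in pRB- AZD2811, and 7.68 and 10.5 in pRB- control. It lay near 0 in 3 libraries, and since the gene has near-identical copies its fragments may have been split between them.

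p53 responds to damage and stress through a set of target genes. Of 26 tested 5 fell and 0 rose, with a list median of -0.18: GADD45A, CCNG1, DDB2, PHLDA3 and PLK3. GADD45A, a stress-induced regulator of growth arrest, stood at 37.0 and 45.2 scaled FPKM in pRB+ AZD2811, 41.8 and 51.6 in pRB+ control, 74.5 and 56.4 in pRB- AZD2811, and 97.8 and 71.1 in pRB- control. Its change was -1.01 ± 0.19 (adjusted p = 0.0324). CCNG1, cyclin G1, had 37.9 and 55.0 in pRB+ AZD2811 and 81.1 and 80.7 in pRB- control. The means of GADD45A and CCNG1 were lowest in the combined state, where their values overlapped those of pRB+ control. EIF4A2, an RNA helicase of translation, had 128 and 187 in pRB+ AZD2811 and 349 and 324 in pRB- control. TEX19, a germ cell gene, had 0.995 and 1.48 in pRB+ AZD2811, 1.17 and 1.59 in pRB+ control, 1.84 and 2.01 in pRB- AZD2811, and 3.42 and 3.31 in pRB- control. Its combined value of -0.97 was smaller in size than the sum of -1.46, with a departure of 0.48 (95% interval 0.04 to 0.93) that did not pass the test (limma, adjusted p = 1). ALMS1-IT1, an RNA within an intron of ALMS1 whose fragments cannot be told from unspliced ALMS1, fell by 1.00 on the log2 scale.

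Of 34 tested neuroendocrine and neuronal genes 3 rose and 1 fell, where 2.11% and 2.71% of all tested genes did. The list median was -0.07, or 0.03 without pRB+ AZD2811 replicate 1. SCRT1, a neuronal transcriptional repressor, stood at 9.38 and 8.43 scaled FPKM in pRB+ AZD2811, 8.56 and 8.43 in pRB+ control, 5.78 and 5.81 in pRB- AZD2811, and 4.47 and 4.54 in pRB- control. The doxycycline groups overlapped and lay above AZD2811 alone, which lay above pRB- control, and its change was 0.85 ± 0.09 (adjusted p = 0.0314). Its departure was -0.24 (95% interval -0.54 to 0.05). CHGA, chromogranin A of secretory granules, had 71.7 and 69.8 in pRB+ AZD2811, 66.4 and 64.3 in pRB+ control, 41.9 and 55.2 in pRB- AZD2811, and 43.1 and 41.8 in pRB- control. SNAP25, a synaptic fusion protein, rose by a log2 change of 0.76, and NEUROD4, a proneural factor, fell with 4.80 and 6.95 in pRB+ AZD2811 against 10.5 and 12.1 in pRB- control. SCRT1, CHGA and SNAP25 were higher in both doxycycline groups than in either group without, and NEUROD4 was lower.

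Nucleolar and ribosome assembly genes had higher values: 3 of 40 rose, where 2.11% of all tested genes did, and 0 fell. Of the 40, 36 lay above 0, with a list median of 0.22 against -0.02 for all tested genes. With FPKM as deposited the list median was -0.19, where the median of all genes was -0.38. NOP58, a core protein of box C/D small nucleolar RNPs, had 64.9 and 56.7 scaled FPKM in pRB+ AZD2811 and 35.7 and 38.7 in pRB- control, a change of 0.69 ± 0.13 (adjusted p = 0.0324). POLR1B, a subunit of RNA polymerase I, and UTP20, of the small subunit processome, changed by 0.42 and 0.62. In the MYC, MAX and MXD network MAX, the shared partner, had 20.0 and 16.1 in pRB+ AZD2811 and 9.54 and 9.92 in pRB- control. MXD3, a MAX partner that represses, had 6.15 and 6.96 in pRB+ AZD2811 and 11.9 and 12.2 in pRB- control. SLC7A11, the cystine transporter, was the lone member of 32 in the ATF4 list to rise, with 2.39 and 3.28 in pRB+ AZD2811, 1.91 and 1.51 in pRB+ control, 1.70 and 2.11 in pRB- AZD2811, and 1.48 and 1.35 in pRB- control. It was highest in the combined state. Its combined change of 0.66 stood beside a sum of 0.43, and the interval of its departure, 0.23 (95% interval -0.23 to 0.69), included 0. In the ATF4 list 6 genes rose with library type as a term, where 219 of all 11693 tested genes did. The median of this list, 0.07, was 0.20 in that fit and 0.22 without the 3 libraries rich in RNA without poly(A) tails. It was -0.17 without pRB+ AZD2811 replicate 2 and -0.30 with FPKM as deposited.

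Other lists held few calls. All 44 oxidative phosphorylation subunits lay below 0, with a median of -0.21 against -0.02 for all tested genes. NDUFB5 alone passed the threshold and fell, where 2.71% of all tested genes fell. Of the Hippo and YAP list AMOTL2, and of the matrix list FN1 (fibronectin), passed, AMOTL2 higher and FN1 lower. In the lists of mitochondrial ribosome (39 genes), cytoplasmic ribosomal proteins (49), glycolysis (20), BCL2 family (11), immediate early genes (13), Notch genes (11) and interferon and MHC class I (8) 0 genes passed. Their medians lay between -0.32, for interferon and MHC class I, and 0.03, for glycolysis, which was -0.36 with FPKM as deposited. The glycolysis median was 0.34 without pRB+ AZD2811 replicate 1 and -0.26 without its replicate 2. The median of cytoplasmic ribosomal proteins, -0.15, was 0.05 without pRB+ AZD2811 replicate 1 and -0.36 without its replicate 2.

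For the question of additivity, 0 genes passed for the departure from the sum (0% of 11693), and 64 had an unadjusted p under 0.05 (0.547%), 33 above the sum (0.282%) and 31 below it (0.265%). With no departures at all and a well-estimated spread, an unadjusted p under 0.05 would be more frequent than this. The test was thus conservative here, and its 0 says little. The robust limma fit also gave 0. The median departure over all genes was 0.01, and the 95% interval included 0 in 11629 genes. That does not show additivity gene by gene: the median half-width of the interval was 0.36 on the log2 scale, against a median combined change of 0.60 in genes that rose. For the single changes, RB1 alone passed for pRB (0.00855%) and 0 genes for AZD2811 (0%), with 2475 (21.2%) and 331 (2.83%) at an unadjusted p under 0.05. The 3 comparisons share the pRB- control libraries, so their values are given side by side and not correlated.

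Within the genes that changed, the departures ran against the change. The 247 genes that rose had a median combined change of 0.60, a median sum of 0.74 and a median departure of -0.14, with 218 below 0. The 317 that fell had a median combined change of -0.55, a median sum of -0.64 and a median departure of 0.09, with 253 above 0. Across all tested genes 5452 of 11693 lay below 0. Both sets were chosen by the combined change, which shares libraries with the departure, so these are descriptions and carry no test. Among the 564, 558 intervals included 0, and 0 departures exceeded 1 in size. The medians kept their signs without each library in turn, from -0.22 to -0.04 in genes that rose and from 0.01 to 0.17 in genes that fell. Without the 3 libraries rich in RNA without poly(A) tails they were -0.36 and 0.22. With FPKM as deposited they were 0.40 and 0.74, beside 0.60 for all genes.

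**Figure D3:**
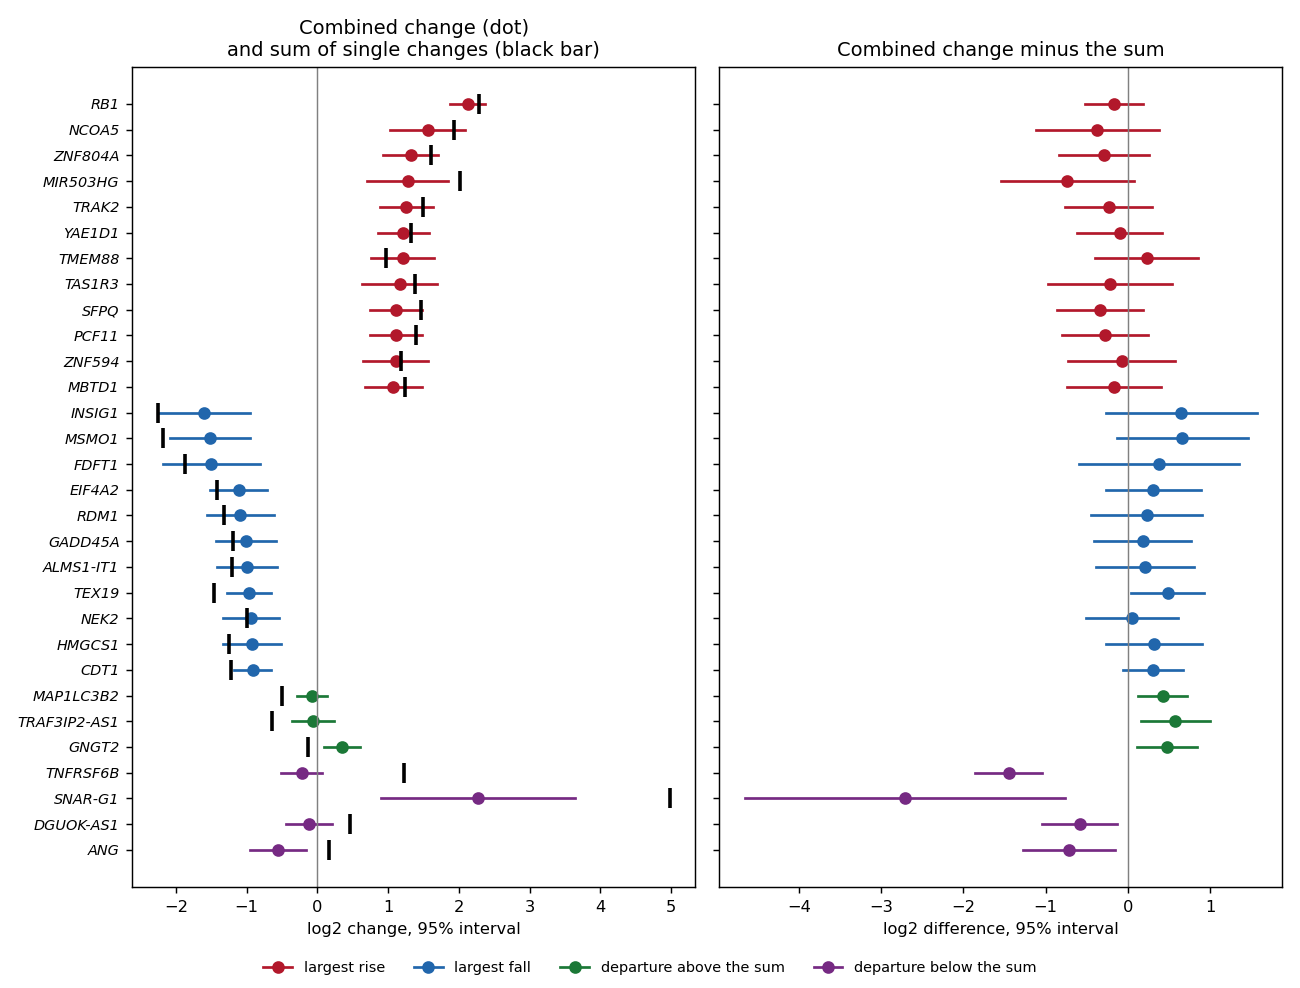
For the named genes (rows), the combined change with the sum of the 2 single changes as a black bar (left) and the combined change minus that sum (right), both in log2 units with 95% intervals as lines. Among the genes that rose or fell most, the interval at the right lies clear of 0 for TEX19, and that of TNFRSF6B, from -1.85 to -1.04, lies furthest from 0.

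The gene with the smallest p for the departure was TNFRSF6B, a soluble decoy receptor of the tumour necrosis factor family. It stood at 0.539 and 0.483 scaled FPKM in pRB+ AZD2811, 1.79 and 1.86 in pRB+ control, 1.86 and 1.31 in pRB- AZD2811, and 0.765 and 0.759 in pRB- control. Each intervention alone went with a higher level than in pRB- control, and both together with a lower one, with no overlap between the combined group and any other. The departure was -1.45 (95% interval -1.85 to -1.04; unadjusted p = 1.78e-05, limma adjusted p = 0.208). It did not pass over all genes, and passed in 1 of 17 alternatives, without pRB- AZD2811 replicate 2. Over the alternatives its adjusted p ranged from 0.0398 to 1. TNFRSF6B overlaps RTEL1, and the strand used in counting is not stated, so fragments of these genes cannot be told apart here.

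The other genes with small p for the departure, none past the threshold, lay above or below the sum. In MAP1LC3B2, a near copy of the autophagy gene MAP1LC3B, the antisense RNA TRAF3IP2-AS1 and GNGT2, a G protein subunit, the combined value lay above the sum by 0.42 to 0.58. GNGT2 had 5.28 and 4.72 scaled FPKM in pRB+ AZD2811, 4.26 and 3.42 in pRB+ control, 3.29 and 3.18 in pRB- AZD2811, and 3.88 and 3.57 in pRB- control. Its combined level lay above the other 3 groups without overlap, and its departure was 0.47 (95% interval 0.11 to 0.84; limma, adjusted p = 1). In SNAR-G1, DGUOK-AS1 and ANG the combined value lay below the sum. ANG, the ribonuclease angiogenin, whose locus is shared with RNASE4, had 0.499 and 0.732 in pRB+ AZD2811, 1.00 and 1.74 in pRB+ control, 1.61 and 1.76 in pRB- AZD2811, and 1.68 and 1.10 in pRB- control. SNAR-G1, of a family of near-identical RNA copies, had 104 and 33.9 in pRB+ AZD2811, 50.5 and 111 in pRB+ control, 89.1 and 46.6 in pRB- AZD2811, and 6.50 and 20.0 in pRB- control. All 3 treated groups of SNAR-G1 lay above pRB- control with wide spread, and the assignment of fragments to single copies is uncertain. DGUOK-AS1 and TRAF3IP2-AS1 are antisense to other genes and share their uncertainty of strand.

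**Figure D4:**
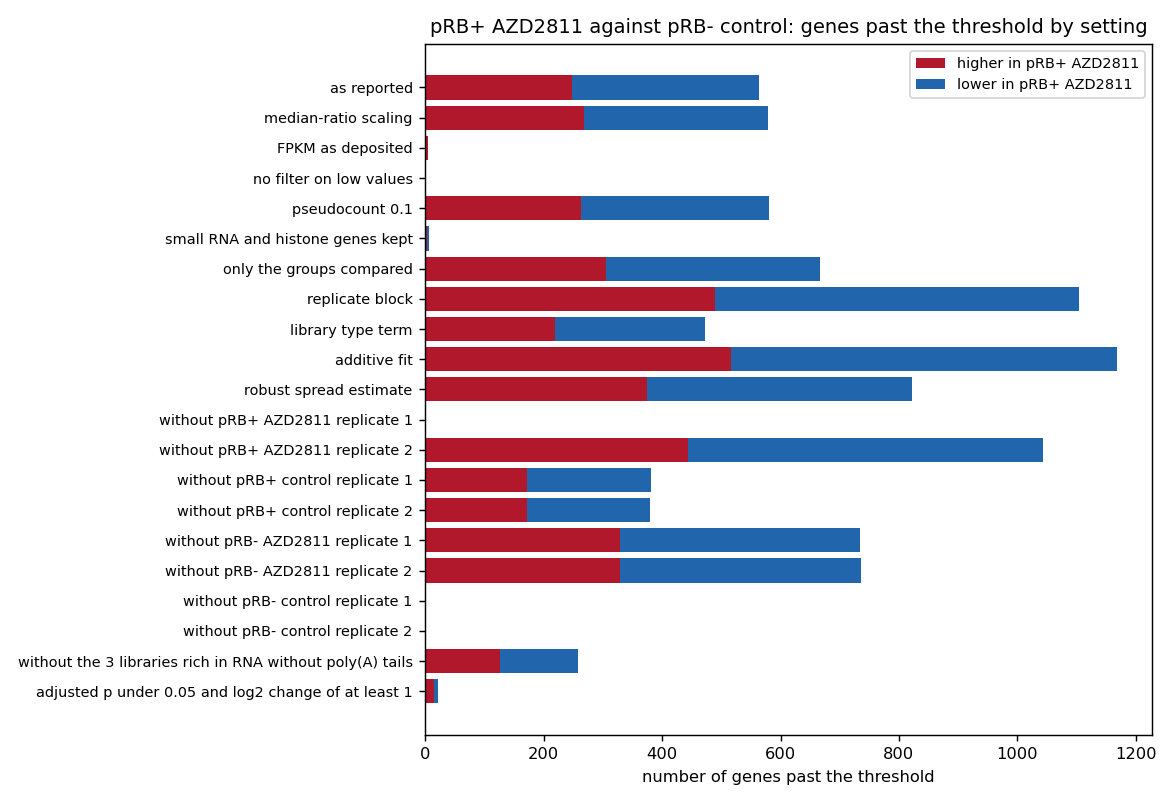
Number of genes past the threshold for the combined change (x axis, linear from 0) under each processing choice (rows), split into genes higher and lower in pRB+ AZD2811. The count is 564 as reported, 1 without pRB+ AZD2811 replicate 1 or either pRB- control replicate, and 1169 in the additive fit.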

How the data were processed

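RNA was sequenced from 8 libraries, prepared from 500 ng RNA each with a stranded total RNA kit per the labels' protocols. The values the authors deposited are FPKM per gene for each library. Per the submitters' processing notes, hg19, Cufflinks 2.2.1 and STAR 2.5.1b were used, with no role or order stated. The annotation and the strand used in counting are not given in the sources used here. The table holds no depth, which was estimated from the steps of 1 fragment in low values of 1523 single-transcript genes of over 1500 nucleotides, at length less 200. At 1 FPKM in 1500 nucleotides this gives a counting error of 14.1% to 16.9%, for counting only.

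Of 25365 rows, 28 with date-like names were left out. FPKM were divided by trimmed-mean factors (30% of ratios, 5% of levels trimmed; 0.455 to 1.33). Histone, SNORD, SNORA, SCARNA, RNU and microRNA genes, 320 of them averaging 1 scaled FPKM or more, were set aside, though host transcripts such as MIR503HG were kept. The other 11693 genes averaging 1 or more were tested.

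Limma 3.58.1 in R 4.3.3 (intensity trend) fitted 4 group means to log2 (value + 1) of all 8 libraries, with 4 residual degrees of freedom. The step was run on simulated data with independent noise and no difference of library type. The outcome is not given here and is no support for the results. Alternatives were median-ratio scaling, FPKM as deposited, no filter, a pseudocount of 0.1, set-aside genes kept, only the groups compared, a replicate block, a library type term, an additive fit, a robust spread estimate, a log2 change of at least 1, each library left out and, added after seeing the data, 3 libraries left out.

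The comparison, the 24 gene lists, the scaling and the tests were chosen with earlier results of these data known. Named genes followed a rule: RB1 and AURKB, up to 12 rises and 12 falls of the largest size past the threshold without overlap (LOC, LINC and ORF genes skipped), the 4 smallest departure p in each direction, and for each list its up to 4 members of smallest p. All members past the threshold of shorter lists, further members of the sterol list and H3F3A were named after their values were seen. Some genes that meet the rule are left out here. Lists are described by counts and medians. The counts are to be read beside the 2.11% of all tested genes that rose and the 2.71% that fell. Promoters are from RefSeq (GRCh38.p14), matched by symbol. Since 9350 of 11693 tested genes matched, fewer than 80%, shares over the tested genes are void and shares are set beside all promoters. Figures used Python 3.11.15 and matplotlib 3.10.9.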

Additional observations from a re-analysis of the deposited data

Results flagged for a closer look

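Replication-dependent histone genes, which lack poly(A) tails, were set aside from all tests, and their signal in pRB+ AZD2811 stood above that in pRB- control. The median of 47 such genes was 27.3 scaled FPKM in pRB+ AZD2811 replicate 1 and 2.29 in replicate 2, against 0.989 and 0.855 in pRB- control. It was also high in pRB+ control replicate 2, at 22.8, and in pRB- AZD2811 replicate 1, at 55.4, the libraries in which RMRP was high as well.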

How the results depend on the processing

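Of the combined change, the 564 genes past the threshold became 5 with FPKM as deposited (0 of the 564 among them), 1 without the filter, 6 with set-aside genes kept, 1105 with a replicate block, 1169 in the additive fit, 22 at a log2 change of at least 1 and 257 without the 3 libraries rich in RNA without poly(A) tails. The labels do not say whether equal replicate numbers mark a shared culture. Deviations of replicate 1 correlated at 0.07 between pRB+ AZD2811 and pRB- control, and from -0.24 to 0.58 over all pairs of groups. The highest, 0.58, was between pRB+ AZD2811 and pRB- AZD2811, whose replicates 1 are both rich in RNA without poly(A) tails. Whether the numbers pair cultures cannot be told. Leaving out 1 library at a time gave 1 to 1044. Median-ratio scaling, a pseudocount of 0.1, only the groups compared, a library type term and a robust spread gave 578, 580, 667, 472 and 822. Of the departure, 0 genes became 3 with FPKM as deposited, 2 with set-aside genes kept, 4 without the 3 libraries (SNAR-C3, SNAR-C4, H3F3A and DMC1, all above the sum, named after their values were seen) and 0 to 2 with each library left out. Of the single pRB change, 1 gene became 5 with FPKM as deposited, 2 without the filter, 2 with a pseudocount of 0.1, 8 with set-aside genes kept, 608 with only the groups compared, 161 with a replicate block, 1977 in the additive fit, 112 with a robust spread and 1 to 206 with each library left out. Of the single AZD2811 change, 0 genes became 4 with FPKM as deposited, 4 with set-aside genes kept and 0 to 1 with each library left out. The additive fit and the fit of only the groups compared give no departure. Causes were not tested. With a group reduced to 1 library, that library is assumed to vary like the others. Named genes past the threshold for the combined change kept their direction under all 19 alternatives. This is no sign of robustness, since several alternatives change the spread or the genes tested and leave the estimate as it was. The groups of these genes did not overlap, so leaving out libraries could not turn the direction either. RB1 passed in 18, not with FPKM as deposited, and SCRT1 in 14. Depth limits genes near 1 FPKM most.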
